A study of Mus musculus with 17 samples.

Results

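The translation initiation and elongation factors were taken as the protein-coding genes whose mouse symbol starts with Eif or Eef, leaving out the Eif2ak kinases, which phosphorylate eIF2. The rule gave 65 of the 55486 genes in the count table, and 62 of these had enough counts to be tested. The other 3 were Eif4e1b, with no count in any library, Eif4ebp3 with 30 counts and Eef1akmt3 with 41 counts over all libraries. RNA was measured by sequencing in ventricular cardiomyocytes of 60-day-old mice labelled as carrying an MBNL1 loss of function (KO) or as wild type (WT). Isolated cells were plated on laminin for 3 h. The cells of 4 and 8 h were given actinomycin D, an inhibitor of transcription, at 2 µg/mL, and those of 0 h were not. KO cells at 0, 4 and 8 h and WT cells at 0 and 8 h gave 3 libraries each, and WT cells at 4 h gave 2. The study asked which transcripts differ in stability between the genotypes. The labels do not say which part of Mbnl1 was changed, in which cells, or whether replicates came from separate animals, so p-values measure the spread between these libraries.

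MBNL1 is a muscleblind RNA-binding protein known for its part in alternative splicing and in the fate of mRNA. Initiation factors bring the initiator tRNA and the small ribosomal subunit to the cap of an mRNA and find the start codon, and elongation factors then deliver each aminoacyl-tRNA and move the ribosome along. In adult heart and skeletal muscle the tRNA carrier eEF1A1 is largely replaced by its close relative eEF1A2, and the 4E-BP proteins hold back the cap-binding protein eIF4E when mTORC1 signalling is low.

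The libraries held 17058419 to 17968827 gene counts, and 13229 genes were tested. Mitochondrially encoded genes held 35.1 to 43.3% of the counts. The 10 cardiomyocyte markers summed to 64464 to 68030 TMM-scaled counts (CPM) in KO and 54155 to 57766 CPM in WT at 0 h. Markers of other cells were also present. The 8 pericyte and smooth muscle markers summed to 439 to 467 CPM in KO and 541 to 566 CPM in WT at 0 h, and the 5 erythroid markers to 4.38 to 5.9998 CPM in KO and 6.90 to 9.36 CPM in WT. Of the 7 pericyte and smooth muscle markers tested, edgeR called 1 lower and none higher in KO at 0 h (17.9% of all genes were lower). Their median log2 fold change was -0.04. At 0 h the 10 macrophage and leukocyte markers summed to 36.6 to 39.9 CPM in KO and 89.1 to 102 CPM in WT, the fibroblast markers to 35.6 to 38.8 CPM in KO and 69.4 to 71.4 CPM in WT, and the endothelial markers to 222 to 261 CPM in KO and 299 to 325 CPM in WT. At 0 h edgeR called 10 of 10 macrophage and leukocyte markers, 8 of 9 tested fibroblast markers and 7 of 10 endothelial markers lower in KO. Their medians were -1.37, -0.89 and -0.53, and 1 endothelial marker was higher. Of the 10 cardiomyocyte markers 6 were higher and 1 lower in KO, with a median of 0.33. In bulk samples fewer cells of a type and less RNA per cell cannot be told apart. Mbnl1 averaged 100 ± 5.37 CPM in KO cells, against 87.5 ± 1.3 CPM in WT cells, at 0 h (SD, n = 3 each), which does not check the genotype, since a count over the whole gene need not show the loss of a part.

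Per length of all annotated exons of a gene merged, the most abundant factor transcripts were those of elongation. Averaged over all libraries, Eef1a2 stood at 433 RPKM (CPM per kilobase of exon) and Eef2, the translocase that moves the ribosome, at 389 RPKM. Eif1, which guards start codon choice, followed at 151 RPKM, then Eef1a1 at 95.3, the eIF3 subunit gene Eif3h at 90.0, the cap-independent initiation factor gene Eif4g2 at 88.0 and Eif5a, whose protein helps the ribosome through difficult peptide bonds, at 86.8 RPKM. Together the members took 0.693 ± 0.0240, 0.772 ± 0.0100 and 0.796 ± 0.0215% of the counts in KO at 0, 4 and 8 h (SD, n = 3 each). In WT they took 0.733 ± 0.0379% at 0 h, 0.757 ± 0.00635% at 4 h and 0.832 ± 0.00466% at 8 h (SD, n = 3, 2 and 3). The shares of KO and WT differed with an exact 2-sided permutation p of 0.3 at 0 h, 0.2 at 4 h and 0.1 at 8 h, where 0.1 is the smallest p these group sizes allow. With mitochondrially encoded genes left out of the total, the members took 1.18, 1.22 and 1.24% in KO and 1.19, 1.24 and 1.31% in WT at 0, 4 and 8 h. KO then lay below WT in every library at each time, also at 4 h, where the KO share of all counts was the higher one, with an exact p of 0.1 at each time.

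Many transcripts of the translation machinery in mammals begin with a C followed by a run of pyrimidines, the terminal oligopyrimidine (TOP) tract, which links their translation to mTORC1. RefSeq start sites on GRCm38.p6 were given for 49 of the 65 members. A C at the annotated start followed by 4 or more C or T, read on the gene's strand, was found in 2 of them (4.08%), against 813 of 27025 genes in the same table (3.01%) and 14 of 61 cytosolic ribosomal protein genes (23.0%). Both members with such a start are shown first, and a pair of abundant elongation factors without one at the annotated base is shown for comparison. Each line holds 15 bases before the start and 15 from it, and capitals mark the pyrimidine run.
Eif3f, chr7:108934400-108934429, plus strand: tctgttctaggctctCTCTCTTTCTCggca
Eif2s3x, chrX:94212637-94212666, minus strand: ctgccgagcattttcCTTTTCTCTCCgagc
Eef2, chr10:81176616-81176645, plus strand: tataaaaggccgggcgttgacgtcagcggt
Eef1a2, chr2:181157001-181157030, minus strand: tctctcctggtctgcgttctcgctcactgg
Allowing the tract to begin within 5 bases of the annotated start, a choice made after seeing the data, gave 22.4% of members, 21.2% of all genes and 47.5% of ribosomal protein genes. Annotated starts can miss the true first base, and no match says only that these letters are not at that place. Eif3f (eIF3 subunit f) and Eif2s3x (the X-linked gamma subunit of eIF2) were not among the members that differed most between genotypes.

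At 0 h, 28 of the 62 tested members were higher and 3 lower in KO than in WT by edgeR at an adjusted p of 0.05, where 18.8% of all genes were called higher and 17.9% lower (36.6% in either direction). The members' median log2 fold change was 0.12, against -0.02 for all genes. These directions change with the scaling of the libraries. Scaling by the plain library size gave 5 members higher and 18 lower, and scaling to the counts of 80 ribosomal protein genes (RP scaling) gave 3 higher and 35 lower, with shifts of the median of all genes by -0.21 and -0.33. How many of all genes were called with these scalings is not given here, so these counts do not set the members apart. The members' median was 0.12, 0.15, -0.08 and -0.21 with TMM, RLE factors, plain library size and RP scaling. A change of scaling shifts all genes alike, so the distance of the members' median from that of all genes hardly depends on it. KO and WT libraries did not overlap for 35 of the members (45.8% of all genes), with KO above WT for 30 of them. The factors of RP scaling ranged from 0.811 (WT replicate 1 at 0 h) to 1.22 (WT replicate 1 at 8 h). Ribosomal protein counts thus moved relative to the library total. Whether they or the other transcripts changed cannot be told from this, and which scaling is neutral was not tested. A member with a small fold change can lose its call by this shift alone, so a lost call does not show that it did not differ. Members called in the same direction with all 4 scalings numbered 6, against 19.9% of all genes: Eif1, Eif3k and Eif4ebp1 were higher in KO, and Eif4a2, Eif4ebp2 and Eif5a2 were lower.

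At 4 h, 20 members were higher and 6 lower in KO, where 14.6% of all genes were called higher and 17.4% lower (32% in all), and RP scaling turned this to 1 higher and 39 lower. At 8 h, 10 were higher and 4 lower, where 13.9% of all genes were called higher and 13.7% lower (27.6% in all), and plain library size gave 3 higher and 13 lower. The counts with RP scaling and plain library size again have no share of all genes beside them and do not set the members apart. KO and WT libraries did not overlap for 38 members at 4 h (53.4% of all genes) and 21 at 8 h (38.8% of all genes). The members' median fold change was 0.07 at 4 h and 0.03 at 8 h, against -0.04 and -0.02 for all genes. With RP scaling at 4 h it was -0.29, against -0.40 for all genes. With plain library size at 8 h it was -0.07, against -0.12 for all genes. With all 4 scalings 6 members kept their call and direction at 4 h (17.8% of all genes did) and 7 at 8 h (19.1% of all genes). Eif4ebp2 and Eif4a2 were lower in KO at all 3 times on this count, and no member was higher at all 3.

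**Figure D1:**
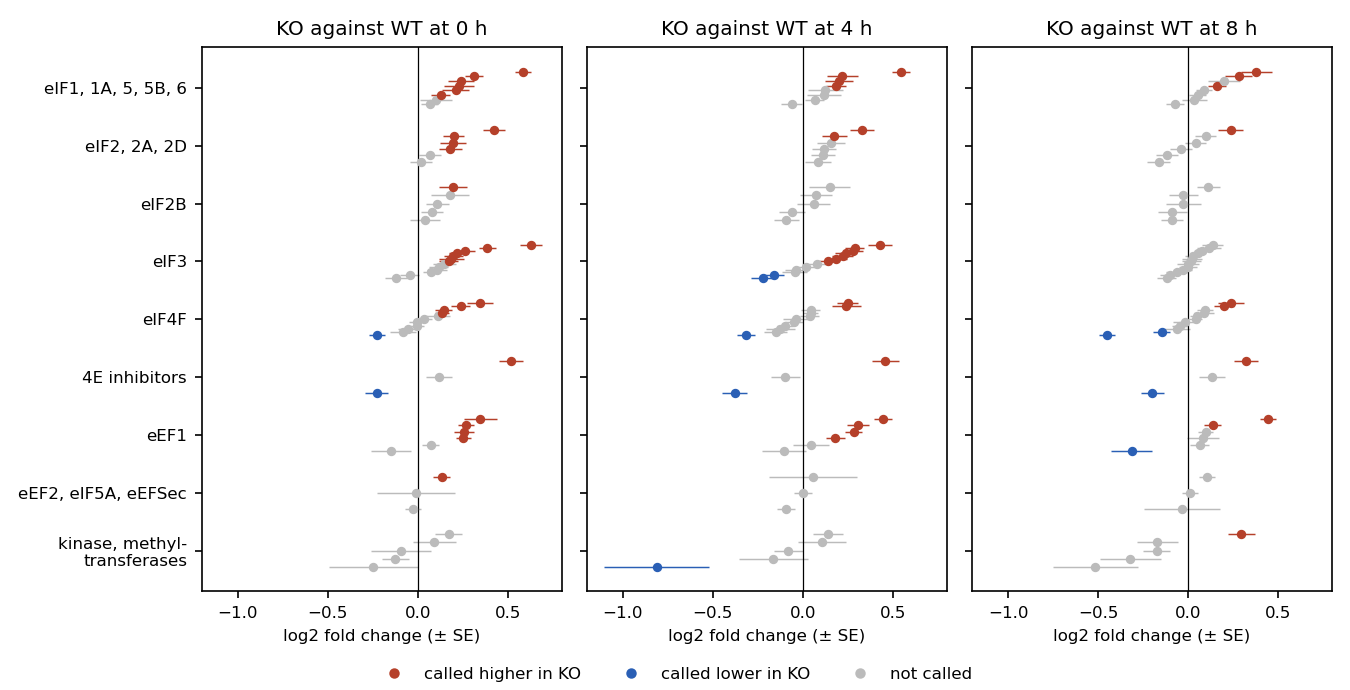
Log2 fold changes of the tested members, KO against WT, at 0, 4 and 8 h with TMM scaling, grouped by role from top to bottom. Points are single genes and bars are standard errors. Red genes were called higher and blue genes lower in KO, grey genes were not called, and the low-count genes Eif5a2 and Eif3j2 are left out. Red points are most frequent at 0 h, 28 against 20 at 4 h and 10 at 8 h, while Eif4a2 and Eif4ebp2 are blue at all 3 times.

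Start codon selection factors were led by Eif1 (ENSMUSG00000035530, GRCm38 chromosome 11, 100319885 to 100322096, forward strand). At 0 h Eif1 stood at 285, 296 and 292 CPM in KO and at 208, 188 and 184 CPM in WT. At 4 h it stood at 352, 368 and 383 CPM in KO and at 251 and 252 CPM in WT. KO and WT libraries did not overlap at either time. The log2 fold change was 0.59 ± 0.04 at 0 h (SE, adjusted p = 1.8e-17) and 0.55 ± 0.05 at 4 h (adjusted p = 5.2e-14). At 8 h Eif1 reached 401, 381 and 410 CPM in KO and 395, 366 and 361 CPM in WT, the groups overlapped, and the log2 fold change of 0.09 was not called (adjusted p = 0.132). The genes grouped by symbol with eIF1, eIF1A, eIF5, eIF5B and eIF6 numbered 8. Of these, 6 were higher in KO at 0 h, 4 at 4 h and 3 at 8 h (18.8, 14.6 and 13.9% of all genes were higher). None was lower. Eif1ad, placed in this group by its symbol, was among those higher at 8 h. The X-linked eIF1A gene Eif1ax was at 0.31 ± 0.05 at 0 h (adjusted p = 6.1e-07), turning to -0.02 with RP scaling.

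The eIF2 complex carries the initiator tRNA, and eIF2B recharges it with GTP. Of 6 genes for eIF2 and the alternative carriers Eif2a and Eif2d, 4 were higher in KO at 0 h, 2 at 4 h and 1 at 8 h, and none was lower (18.8, 14.6 and 13.9% of all genes were higher). Eif2s2, the beta subunit (ENSMUSG00000074656, chromosome 2, 154871410 to 154892935, reverse strand), stood at 86.7, 80.3 and 91.2 CPM in KO and 65.2, 59.5 and 67.6 CPM in WT at 0 h, with no overlap. Its log2 fold change was 0.43 ± 0.06 at 0 h (SE, adjusted p = 1.7e-07) and 0.33 ± 0.07 at 4 h (adjusted p = 1.5e-04), and it turned to -0.03 at 4 h with RP scaling. At 8 h Eif2s2 was at 86.1, 94.5 and 100 CPM in KO and 101, 89.7 and 97.7 CPM in WT, and the groups overlapped. Of the 5 eIF2B subunit genes, 1 was higher in KO at 0 h and none was called at 4 or 8 h (36.6, 32 and 27.6% of all genes were called in either direction at 0, 4 and 8 h). The gamma subunit has copies on the X and Y chromosomes, and both were expressed, with Eif2s3y at 49.9 to 51.5 CPM in KO and 45.7 to 54.6 CPM in WT at 0 h.

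The eIF3 complex holds the small subunit and the other initiation factors together. Of its 14 tested genes, 7 were higher in KO at 0 h (18.8% of all genes), 7 were higher and 2 lower at 4 h (14.6 and 17.4% of all genes), and none was called at 8 h (27.6% of all genes in either direction). Eif3k, a peripheral subunit (ENSMUSG00000053565, chromosome 7, 28971372 to 28981864, reverse strand), had the highest fold change of all members at 0 h. It stood at 53.0, 55.3 and 58.3 CPM in KO and at 35.4, 36.1 and 36.0 CPM in WT, and at 4 h at 52.8, 57.7 and 64.3 CPM in KO and 42.8 and 43.9 CPM in WT. KO lay above WT in every library at both times. The log2 fold change was 0.63 ± 0.06 at 0 h (SE, adjusted p = 1.1e-13), or 1.55-fold, and 0.43 ± 0.07 at 4 h (adjusted p = 5.0e-07), while RP scaling left 0.06 at 4 h (adjusted p = 0.515). Eif3h was at 0.39 ± 0.05 at 0 h (adjusted p = 4.3e-10), 0.18 with plain library size and 0.05, no longer called, with RP scaling. In the other direction Eif3j1, a loosely bound subunit, was at -0.22 ± 0.07 at 4 h (adjusted p = 0.00685), a call lost without WT replicate 2 at 4 h (-0.14, adjusted p = 0.248), a fit in which the lone WT library left at 4 h is assumed to vary like the other groups. Exons of Eif3j1 overlap those of Spg11 on the other strand over 19.0% of their length, and it is not given whether reads were counted by strand.

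**Figure D2:**
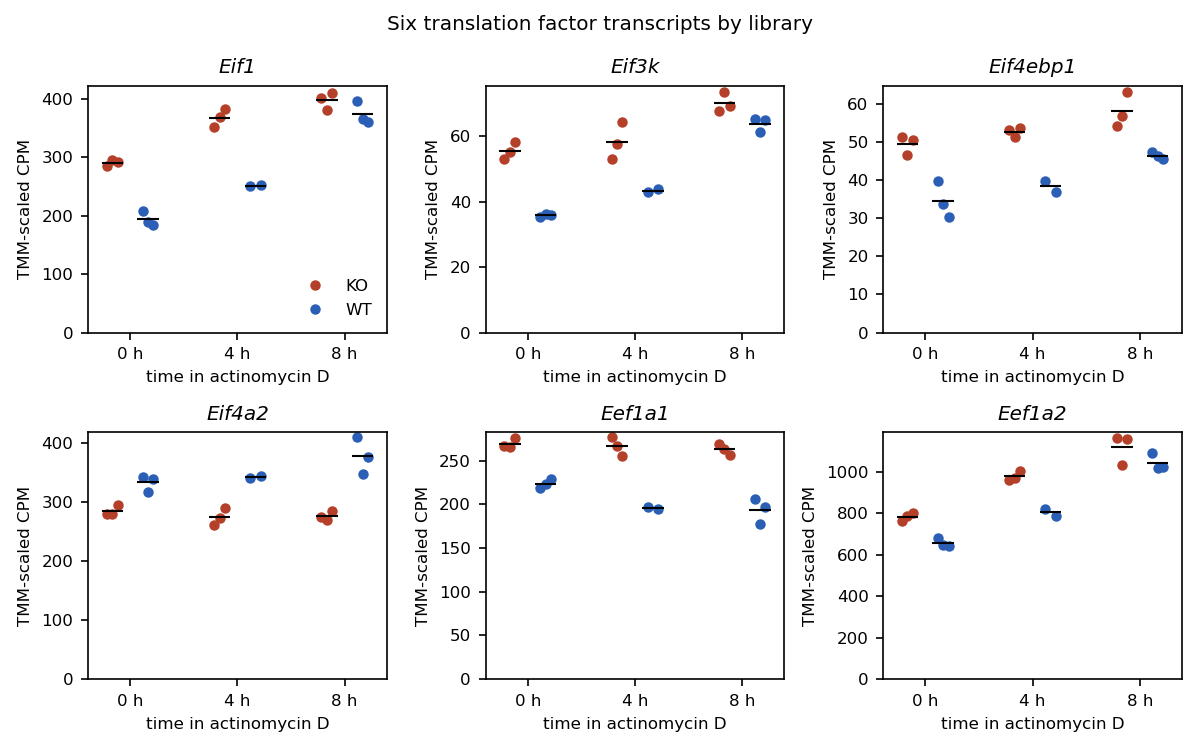
TMM-scaled CPM of 6 members in each library, with KO (red) left of WT (blue) at 0, 4 and 8 h in actinomycin D. Points are libraries and lines are group means. Eif1, Eif3k and Eif4ebp1 lie higher in KO at 0 and 4 h, Eif4a2 lies lower in KO at each time, and Eef1a1 lies higher in KO at each time.

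The cap-binding complex eIF4F joins the cap reader eIF4E, the scaffold eIF4G and the helicase eIF4A. The Eif4a, Eif4b, Eif4e, Eif4g and Eif4h genes were grouped with it by symbol, so not all of them code for parts of eIF4F. Of the 11 tested, 4 were higher and 1 lower in KO at 0 h, 2 higher and 1 lower at 4 h, and 2 higher and 2 lower at 8 h (36.6, 32 and 27.6% of all genes were called in either direction). The helicase gene Eif4a2 (ENSMUSG00000022884, chromosome 16, 23107444 to 23114136, forward strand) was lower in KO at each time and with all 4 scalings. It stood at 279, 281 and 296 CPM in KO and 343, 318 and 340 CPM in WT at 0 h, and at 261, 273 and 290 CPM in KO and 341 and 344 CPM in WT at 4 h. At 8 h it stood at 275, 270 and 285 CPM in KO and 411, 348 and 377 CPM in WT. No KO library reached the lowest WT library at any time. The log2 fold changes were -0.23 ± 0.05 at 0 h (SE, adjusted p = 5.9e-05), -0.32 ± 0.05 at 4 h (adjusted p = 1.2e-06) and -0.45 ± 0.05 at 8 h (adjusted p = 4.3e-12). Small RNAs that share bases with annotated exons of Eif4a2 had mean counts at or near 0. How reads over shared bases were counted is not given. Exons of Rfc4, on the other strand, overlap 3.63% of the exon length of Eif4a2 and had a mean count of 76.4.

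Eif4a2 and its near-identical relative Eif4a1 can be compared within a library, which removes the scaling. Per exon length, Eif4a2 made up 62.7 ± 0.371, 61.3 ± 0.708 and 61.8 ± 0.189% of the pair in KO at 0, 4 and 8 h, and 66.9 ± 1.06, 67.1 ± 0.196 and 66.6 ± 1.11% in WT (SD, n = 3, and 2 in WT at 4 h). The KO share lay below the WT share in every library at each time. The group means stayed within 61.3 to 62.7% in KO and 66.6 to 67.1% in WT over the 8 h. Reads shared by the 2 genes could have been split or dropped in counting, which is not given.

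The 4E-BP genes moved in opposite directions. Eif4ebp1 (ENSMUSG00000031490, chromosome 8, 27260329 to 27276674, forward strand) stood at 51.2, 46.6 and 50.4 CPM in KO and 39.7, 33.7 and 30.4 CPM in WT at 0 h. It stood at 53.1, 51.4 and 53.6 CPM in KO and 39.8 and 37.0 CPM in WT at 4 h, and at 54.2, 56.8 and 63.1 CPM in KO and 47.4, 46.3 and 45.6 CPM in WT at 8 h. KO lay above WT in every library at each time, with log2 fold changes of 0.52 ± 0.07 (SE, adjusted p = 3.3e-09), 0.46 ± 0.07 (adjusted p = 1.5e-06) and 0.32 ± 0.07 (adjusted p = 8.6e-05), of which the value at 4 h became 0.10 (adjusted p = 0.357) with RP scaling. Eif4ebp2 (ENSMUSG00000020091, chromosome 10, 61428491 to 61452661, reverse strand) stood at 42.8, 41.2 and 39.98 CPM in KO and 48.2, 49.8 and 47.2 CPM in WT at 0 h, and KO was again below WT in every library at 4 and 8 h. Its log2 fold changes were -0.23 ± 0.06 (adjusted p = 0.00253), -0.38 ± 0.07 (adjusted p = 1.4e-05) and -0.20 ± 0.06 (adjusted p = 0.0151) at 0, 4 and 8 h. The call at 8 h was lost without KO replicate 2 at 8 h (adjusted p = 0.115) or without WT replicate 2 at 8 h (adjusted p = 0.105). Eif4ebp1 made up 75.6 ± 1.005, 78.0 ± 2.16 and 80.3 ± 1.05% of the 4E-BP transcripts per exon length in KO at 0, 4 and 8 h, against 64.4 ± 3.15, 66.3 ± 0.0285 and 74.2 ± 0.836% in WT (SD, n = 3, and 2 in WT at 4 h). The shares of KO and WT did not overlap at any time.

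**Figure D3:**
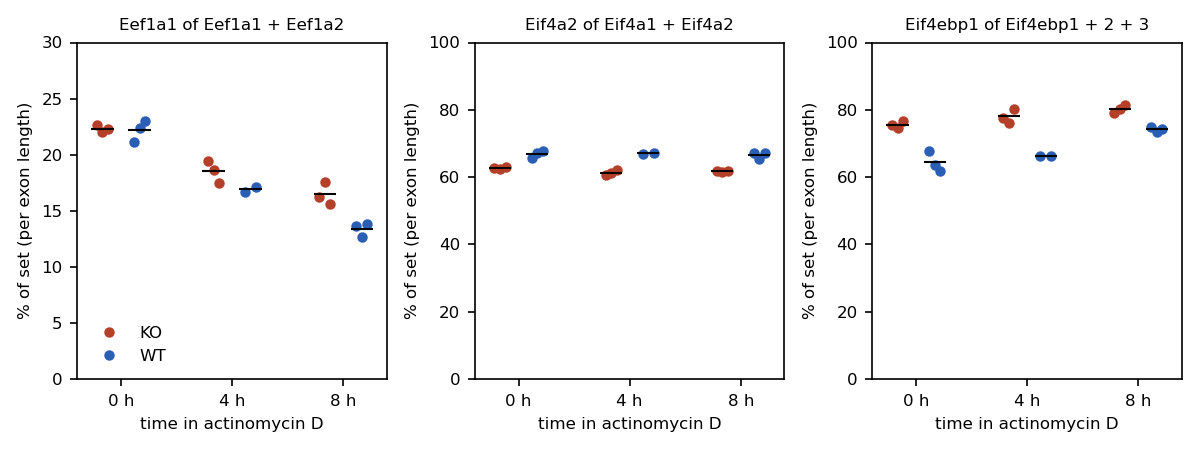
Share of one paralogue in its set, from reads per exon length within each library, with KO (red) left of WT (blue) at 0, 4 and 8 h. Points are libraries and lines are group means; the first axis ends at 30% and the others at 100%. The Eef1a1 share is alike at 0 h, near 22% in both genotypes, and higher in KO at 4 and 8 h, while the Eif4a2 share is lower and the Eif4ebp1 share higher in KO at each time.

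Of 6 genes grouped by symbol with the eEF1 complex of elongation, 4 were called higher in KO at 0 h, 4 at 4 h and 2 at 8 h. None was lower at 0 and 4 h, and 1, Eef1e1, was lower at 8 h (36.6, 32 and 27.6% of all genes were called in either direction). Eef1a1 (ENSMUSG00000037742, chromosome 9, 78478449 to 78489151, reverse strand) stood at 266, 266 and 276 CPM in KO and 219, 223 and 229 CPM in WT at 0 h. It stood at 277, 267 and 255 CPM in KO and 197 and 195 CPM in WT at 4 h, and at 269, 263 and 256 CPM in KO and 206, 177 and 196 CPM in WT at 8 h. Every KO library lay above every WT library at each time. The log2 fold changes were 0.27 ± 0.04 at 0 h (SE, adjusted p = 1.1e-06), 0.44 ± 0.05 at 4 h (adjusted p = 7.5e-11) and 0.45 ± 0.04 at 8 h (adjusted p = 1.1e-12). The value at 0 h became 0.06 with plain library size and turned to -0.06 with RP scaling, and the value at 4 h became 0.08 (adjusted p = 0.307) with RP scaling, whereas that at 8 h stayed called at 0.35 and 0.40.

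Eef1a2, the muscle form (ENSMUSG00000016349, chromosome 2, 181147653 to 181157014, reverse strand), stood at 762, 785 and 803 CPM in KO and 681, 648 and 642 CPM in WT at 0 h. At 8 h it stood at 1163, 1030 and 1160 CPM in KO and 1092, 1019 and 1022 CPM in WT, and the groups overlapped. At 0 h its log2 fold change of 0.25 ± 0.04 (SE, adjusted p = 1.3e-06) turned to -0.08 with RP scaling. Within libraries, Eef1a1 made up 22.3 ± 0.284% of the Eef1a pair in KO and 22.2 ± 0.924% in WT at 0 h, which overlap (SD, n = 3 each). At 4 h its share was 18.5 ± 0.955% in KO (n = 3) and 16.9 ± 0.304% in WT (n = 2), and at 8 h 16.5 ± 1.03% in KO and 13.4 ± 0.619% in WT (SD, n = 3 each). The share of the muscle form was higher at 8 h than at 0 h in every library of both genotypes, and KO and WT did not overlap at 4 and 8 h. Eef1a1 has processed copies in the genome that can take or share its reads, and how such reads were counted is not given.

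Eef2 was not called between genotypes at 0 or 8 h with TMM scaling, at -0.02 ± 0.04 at 0 h (SE, adjusted p = 0.702) and 0.01 ± 0.04 at 8 h (adjusted p = 0.907), although it was called lower in KO at 0 h with plain library size (-0.23) and RP scaling (-0.36). Eif5a2, the rare relative of Eif5a, had 4, 7 and 2 counts in KO and 15, 17 and 7 counts in WT at 0 h. Its log2 fold change of -1.36 ± 0.49 (adjusted p = 0.0229) was lost without any of 4 of the 6 libraries (KO replicate 1 or 3, WT replicate 1 or 2; adjusted p = 0.0697 to 0.136). At 8 h Eef2k, the kinase that inhibits eEF2, was higher in KO at 0.30 ± 0.07 (adjusted p = 0.00154). Eef1e1, a member of the aminoacyl-tRNA synthetase complex, was lower at -0.31 ± 0.11 (adjusted p = 0.0277), a call lost without any of 4 of the 6 libraries, KO replicate 1 or 2 or WT replicate 2 or 3 at 8 h (adjusted p = 0.0698 to 0.151).

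The second comparison followed each transcript through the block of transcription. No libraries of 4 or 8 h without actinomycin D were present, so its effect and that of longer culture cannot be told apart. A rise here is a rise relative to other transcripts, since transcription was blocked and the counts hold no measure of total RNA. In KO, 21 members were higher and none lower at 4 h than at 0 h, where 11.4% of all genes were called higher and 13.5% lower (24.9% in all). At 8 h, 37 were higher and 1 lower in KO, where 21.4% of all genes were called higher and 23.2% lower (44.6% in all). In WT, 29 members were higher and 1 lower at 4 h, where 15.9% of all genes were called higher and 12.6% lower (28.5% in all). At 8 h, 46 were higher and 2 lower in WT, where 25% of all genes were called higher and 26.8% lower (51.8% in all). In KO the libraries of the later time and of 0 h did not overlap for 28 members at 4 h (38.5% of all genes) and 41 at 8 h (52% of all genes). In WT they did not overlap for 39 members at 4 h (50% of all genes) and 46 at 8 h (56.3% of all genes). The members' medians at 8 h were 0.21 in KO and 0.27 in WT, against -0.02 and -0.03 for all genes. Without WT replicate 2 at 4 h the WT count at 4 h was 18, with the spread of the lone library left taken from the other groups.

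Scaling by ribosomal protein counts turned the 8 h counts round, to 1 higher and 28 lower in KO and 2 higher and 50 lower in WT, with shifts of the median of all genes by -0.39 and -0.67. Plain library size gave 19 higher and 3 lower in KO and 25 higher and 6 lower in WT at 8 h. At 4 h the counts were 12 higher and none lower in KO and 2 higher and 1 lower in WT with plain library size. With RP scaling they were none higher and 9 lower in KO and 1 higher and 1 lower in WT. The shares of all genes called with plain library size or RP scaling are not given here. These counts of members therefore do not set them apart from other genes. With plain library size the members' median was 0.10 in KO at 8 h, against -0.12 for all genes, and 0.05 in WT, against -0.24. With RP scaling at 4 h it was -0.11 in KO, against -0.22 for all genes, and -0.03 in WT, against -0.17. With RP scaling the members' median was -0.18 in KO at 8 h, against -0.41 for all genes, and -0.40 in WT, against -0.69 for all genes. The summed cardiomyocyte markers also rose, to 80227 to 86565 CPM at 8 h against 64464 to 68030 CPM at 0 h in KO, and endothelial markers were at 60.5 to 66.9 CPM at 8 h against 222 to 261 CPM at 0 h. In WT, cardiomyocyte markers stood at 69438 to 76154 CPM at 8 h against 54155 to 57766 CPM at 0 h, and endothelial markers at 72.6 to 78.9 CPM at 8 h against 299 to 325 CPM at 0 h. Pericyte and smooth muscle markers stood at 555 to 605 CPM at 8 h against 439 to 467 CPM at 0 h in KO, and at 537 to 638 CPM at 8 h against 541 to 566 CPM at 0 h in WT. Single genes of this list went both ways. Of its 7 tested genes, 2 were called higher and 4 lower at 8 h in KO, and 2 higher and 5 lower in WT. Their median log2 fold changes were -0.96 in KO and -0.64 in WT, unlike the sums. The part of these marker shifts in the members' changes was not tested.

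**Figure D4:**
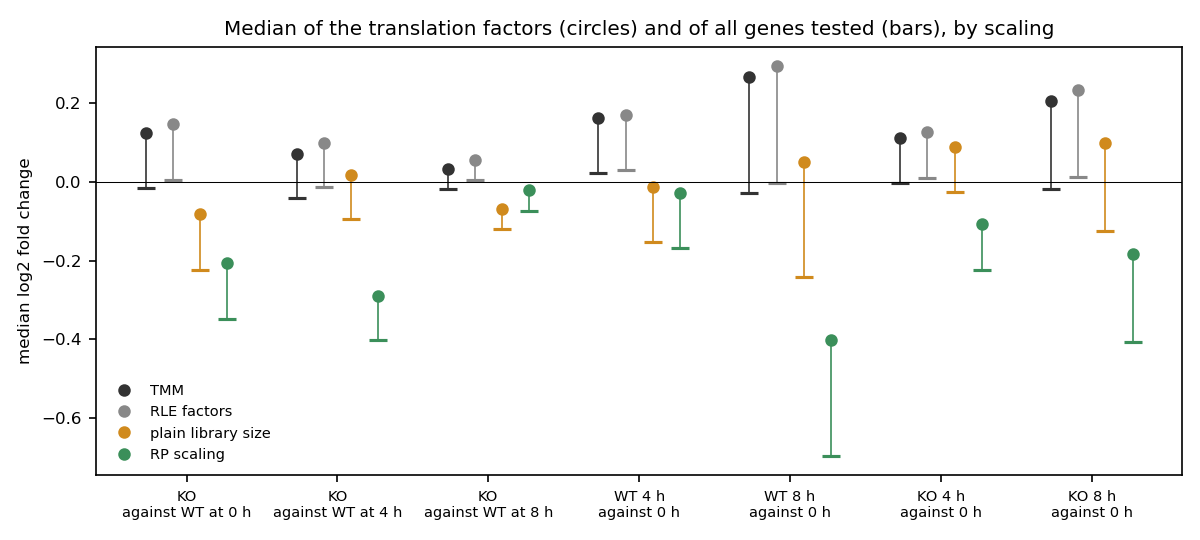
Median log2 fold change of the 62 tested members (circles) and of all 13229 genes tested (bars) in 7 comparisons, with 4 ways of scaling the libraries by colour. The sign of the members' median changes with the scaling: at 8 h in WT it is 0.27 with TMM and -0.40 with RP scaling. The distance between circle and bar is nearly the same for each scaling by construction, since a scaling shifts all genes alike.

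Among initiation factors, Eif1 had a log2 fold change in KO of 0.34 ± 0.04 at 4 h (SE, adjusted p = 1.1e-08) and 0.45 ± 0.04 at 8 h (adjusted p = 3.4e-13), the last falling to 0.06 with RP scaling. In WT, where no member rose more at 8 h, Eif1 was at 0.38 ± 0.05 at 4 h (adjusted p = 1.0e-08) and 0.95 ± 0.04 at 8 h (adjusted p = 1.4e-27), which held with all 4 scalings. Eif3k was at 0.34 ± 0.06 in KO at 8 h, turning to -0.05 with RP scaling, and at 0.83 ± 0.06 in WT (adjusted p = 6.7e-19), which held with all 4 scalings. Its libraries at 8 h stood at 67.7, 73.4 and 69.1 CPM in KO and 65.1, 61.2 and 64.8 CPM in WT. Of the 14 eIF3 genes, 11 were higher at 8 h than at 0 h in KO and 13 in WT. Of the 6 genes for eIF2 and its alternatives, 4 were higher in KO and 6 in WT, and of the 5 eIF2B genes 2 were higher in KO and 4 in WT. Of all genes, 21.4% were called higher at 8 h in KO and 25% in WT.

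Among the Eif4 genes, Eif4a2 was at -0.04 in KO at 8 h, which was not called, and at 0.18 ± 0.05 in WT (adjusted p = 6.7e-04), turning to -0.03 with plain library size and -0.49 with RP scaling. Eif4g2 was at 0.33 ± 0.04 in KO (adjusted p = 9.1e-11) and 0.42 ± 0.04 in WT (adjusted p = 9.9e-15), turning to -0.06 and -0.25 with RP scaling. The inhibitor gene Eif4ebp2 stood at 37.5, 34.3 and 38.2 CPM at 8 h against 42.8, 41.2 and 39.98 CPM at 0 h in KO, with no overlap. This change of -0.17 (adjusted p = 0.0249) was no longer called without KO replicate 1 at 0 h or KO replicate 2 at 8 h (adjusted p = 0.116 and 0.154), or with RLE factors (adjusted p = 0.0644). In WT Eif4ebp2 fell, at -0.20 ± 0.06 (adjusted p = 0.00533), and kept its call with all 4 scalings.

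Elongation factor genes split. With TMM scaling Eef1a1 was not called in KO, at -0.03 at 8 h. It was called lower in KO at 8 h with plain library size (-0.14, adjusted p = 0.0285) and RP scaling (-0.42, adjusted p = 1.7e-08). In WT it fell, at -0.19 ± 0.05 at 4 h (SE, adjusted p = 0.00225) and -0.21 ± 0.04 at 8 h (adjusted p = 5.1e-05), with all 4 scalings. Eef1b2, the exchange factor of eEF1A, stood at 129, 132 and 133 CPM at 8 h against 86.0, 88.3 and 97.3 CPM at 0 h in KO, and at 139, 114 and 123 CPM at 8 h against 78.6, 71.1 and 77.7 CPM at 0 h in WT. The times did not overlap in either genotype. Its log2 fold change was 0.54 ± 0.05 in KO (adjusted p = 1.7e-12), the single member that kept its call with all 4 scalings in KO at 8 h (21.6% of all genes did), and 0.73 ± 0.05 in WT (adjusted p = 1.3e-17). Eef1a2 was at 0.51 ± 0.04 in KO (adjusted p = 3.9e-16) and 0.67 ± 0.04 in WT (adjusted p = 2.2e-21), where RP scaling left -0.00031 in WT. Eef2 was at 0.45 ± 0.04 in KO (adjusted p = 8.7e-13) and 0.41 ± 0.04 in WT (adjusted p = 6.1e-12), with -0.25 in WT under RP scaling. With all 4 scalings 4 members kept their calls in WT at 8 h, namely Eif1, Eif3k, Eif4ebp2 and Eef1a1 (25.4% of all genes did), 2 in WT at 4 h, Eif1 and Eef1a1 (12.7%), and none in KO at 4 h (13.1%).

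The third comparison asked whether the change over time differed between genotypes. At 4 h no member passed the edgeR test of the interaction, where 0.348% of all genes did (0.242% higher, 0.106% lower, and 0.166% with all 4 scalings). There 7 members had an unadjusted p under 0.05, and DESeq2 called none with 4 at an unadjusted p under 0.05. The share of all genes with an unadjusted p under 0.05 is not given here, so these counts do not set the members apart. At 8 h, 7 members changed less in KO than in WT and none more, where 3.33% of all genes had a lower and 1.87% a higher change (5.2% in all). Without WT replicate 1 at 0 h, WT replicate 3 at 0 h or WT replicate 2 at 8 h this count was 14, 11 and 11. The 7 were Eif1, Eif3k, Eif2s2, Eif2a, Eif3h, Eif2s1 and Eif4a2, all genes of initiation. The initiation groups also held most of the 62 tested members, with 8, 6, 5, 14 and 11 genes. With plain library size 3 were lower and 1 higher, and with RP scaling none was lower and 15 were higher, with shifts of the median of all genes by 0.11 and 0.28. How many of all genes were called with these scalings is not given here, so these counts do not set the members apart. No member kept its call with all 4 scalings, against 2.16% of all genes.

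Eif1 had the lowest interaction, -0.50 ± 0.06 (SE, adjusted p = 5.1e-08), and was -0.39 with plain library size (adjusted p = 1.5e-04) and -0.22 with RP scaling (adjusted p = 0.0548). Eif3k was at -0.49 ± 0.08 (adjusted p = 5.0e-05), -0.39 with plain library size (adjusted p = 0.00522) and -0.21 with RP scaling (adjusted p = 0.128). Eif2s2 was at -0.46 ± 0.08 (adjusted p = 4.3e-04), -0.36 with plain library size and -0.19 with RP scaling. For these genes the direction was the same under each scaling, and their KO levels at 0 h lay above the WT levels at 0 h while the levels at 8 h were close. Eef1a1 had the opposite sign, 0.18 ± 0.06 (adjusted p = 0.0871), and was called with plain library size at 0.28 (adjusted p = 0.0155) and with RP scaling at 0.46 (adjusted p = 1.8e-04).

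**Figure D5:**
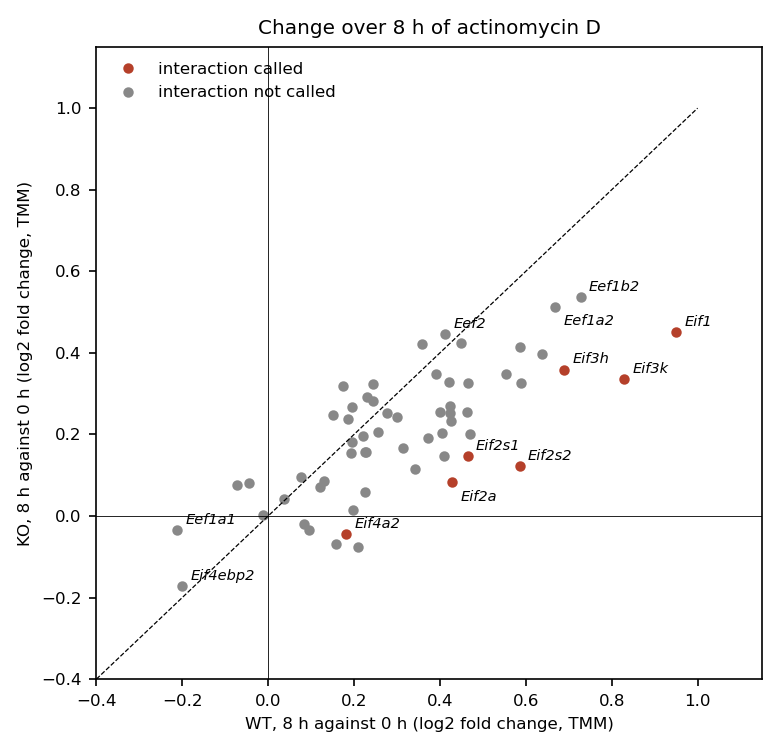
Log2 fold change at 8 h against 0 h in KO (vertical axis) and in WT (horizontal axis) for the tested members, with TMM scaling; the low-count genes Eif5a2 and Eif3j2 are left out. Each point is a gene, red points were called in the interaction test, and the dashed line marks equal change. Eif1, Eif3k and Eif2s2 lie below the line, and Eef1a1 lies above it. Both axes use the libraries of their own genotype.

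Other genes of translation were counted from lists. The shares of all genes called higher in KO were 18.8, 14.6 and 13.9% at 0, 4 and 8 h, and those called lower 17.9, 17.4 and 13.7%. Of 10 mitochondrial translation factors, 8 were higher in KO at 0 h, 6 at 4 h and 6 at 8 h, and none was lower, with 3 higher at 0 h under plain library size and 3 lower under RP scaling. Tufm, the mitochondrial elongation factor that delivers aminoacyl-tRNA, was at 0.41 ± 0.04 at 8 h (SE, adjusted p = 8.3e-12), and stood above 0 under each scaling there. Of 22 translation partners tested, 6 were higher and 4 lower in KO at 0 h, where 36.6% of all genes were called in either direction. Of 22 cytosolic aminoacyl-tRNA synthetase and complex genes, 2 were higher and 1 lower at 0 h, and 16 were higher in WT at 8 h than at 0 h, where 25% of all genes were (none higher and 21 lower with RP scaling). For list counts with plain library size or RP scaling, the shares of all genes called are not given here. Denr, which acts in reinitiation, had an 8 h interaction of -0.49 ± 0.10 (adjusted p = 5.9e-04), and Aimp1, a scaffold of the synthetase complex, one of -0.50 ± 0.10 (adjusted p = 0.00105), both negative under each scaling.

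Of 6 genes for eIF2 kinases and the subunits that direct its phosphatase, 2 were lower in KO at 0 h and none higher (17.9 and 18.8% of all genes). Eif2ak2, the double-stranded RNA sensor PKR, was lower in KO at -1.004 ± 0.09, -1.09 ± 0.10 and -1.04 ± 0.09 at 0, 4 and 8 h (SE, adjusted p = 2.2e-15, 1.1e-14 and 1.9e-15), with the same direction under each scaling. Macrophage and leukocyte marker sums were 36.6 to 39.9 CPM in KO and 89.1 to 102 CPM in WT at 0 h, and 23.6 to 28.2 CPM in KO and 20.4 to 25.0 CPM in WT at 8 h, and their part in the Eif2ak2 difference was not tested. Ppp1r15b, which keeps eIF2 dephosphorylated, fell over 8 h at -1.31 ± 0.11 in KO and -1.10 ± 0.10 in WT. Of 12 genes of the mTORC1 axis, 1 was higher and 3 lower in KO at 0 h, near the share of all genes called (36.6%), among them the mTOR inhibitor Deptor at -1.09 ± 0.10, with the same direction under each scaling. Of 9 genes for hypusine and diphthamide, the modified residues of eIF5A and eEF2, 3 were higher and 1 lower at 0 h (18.8 and 17.9% of all genes), the last being Dph7 at -1.10 ± 0.15.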

How the data were processed

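The authors deposited raw counts per Ensembl gene for 17 libraries. STAR, featureCounts, DESeq2 and limma, with GRCm38 and mm10, are named in the submitters' processing notes. Whether counting used strand is not given in the sources used here. A deposited table of ratios was not used. Names and exon lengths were read from GENCODE M21 (GRCm38), where 55226 identifiers (99.5%) were found. A row that names no gene held 0.00735 to 0.0155% of counts and was left out.

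The tests used edgeR 4.0.16 (R 4.3.3): filterByExpr (13229 genes, 99.9% of counts), TMM scaling and 1 robust quasi-likelihood fit of 6 groups, with a biological coefficient of variation of 5.285%. Adjusted p-values are Benjamini-Hochberg over all genes tested within each of 9 comparisons, with calls at 0.05. A standard error is the size of the log2 fold change divided by the square root of F. CPM are TMM-scaled, and RPKM are CPM per kilobase of exon. Exon length is that of all annotated exons of a gene merged, which can exceed that of the transcripts present. Levels and shares compared between genes depend on this choice. The fit was tested on simulated counts. Alternatives were RLE factors, plain library size, ribosomal protein (RP) scaling, no filter, a CPM of 1 in 3 libraries, DESeq2 1.42.0, only the groups compared, a replicate block and leaving out each library. Named members were the 5 highest and 5 lowest called in each comparison with the paralogue sets, Eef2, Eef2k, Eif2s1 and Eif6, and in each other list the highest and lowest called. Values of further members were chosen after they were seen. Members and lists were chosen with earlier results of these data known.

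Over 16 pairs of libraries of a group, the spread was 1.295 to 3.69 times that of counting, so none was a copy. Same-numbered libraries had residual correlations of -0.0469 to 0.0382 over 40 pairs, so numbers were not used as pairs.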

Additional observations from a re-analysis of the deposited data

Results flagged for a closer look

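For 7 members the change from 0 to 8 h of actinomycin D differed between KO and WT by edgeR's test of the interaction at an adjusted p of 0.05, with TMM scaling. The log2 difference (KO change minus WT change) was -0.50 for Eif1, -0.49 for Eif3k, -0.46 for Eif2s2, -0.34 for Eif2a, -0.33 for Eif3h, -0.32 for Eif2s1 and -0.22 for Eif4a2. The call for Eif2a was lost without KO replicate 2 at 0 h, KO replicate 2 at 8 h or WT replicate 1 at 8 h (adjusted p = 0.0619, 0.0513 and 0.1). The call for Eif4a2 was lost without KO replicate 3 at 0 h, KO replicate 1 or 2 at 8 h or WT replicate 1 at 8 h (adjusted p = 0.1, 0.0643, 0.0842 and 0.161). With plain library size 3 of the 7 stayed called, Eif1, Eif3k and Eif2s2, and with RP scaling none did. The macrophage markers had an interaction of the opposite sign, called for 8 of 10 genes with a median of 1.80. Of the 10 cardiomyocyte markers, 3 were called with the same sign as the 7 members and none with the other, with a median of -0.0677. The part of these markers in the results was not tested.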

How the results depend on the processing

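Scaling by RLE factors, a CPM of 1 in 3 libraries, DESeq2 and a fit of only the groups compared left each count of called members within 1.5 times its value and reversed no named value. Each count was recomputed without single libraries, and ranged over 24 to 35 members for KO against WT at 0 h, 20 to 25 at 4 h and 10 to 16 at 8 h. The ranges were 17 to 19 for KO at 4 h, 32 to 38 for KO at 8 h, 18 to 28 for WT at 4 h, 45 to 48 for WT at 8 h, 0 for the interaction at 4 h and 5 to 14 for that at 8 h. With the replicate number as a block the counts were 33, 23 and 14 for KO against WT at 0, 4 and 8 h, 21 and 38 for KO at 4 and 8 h, 29 and 48 for WT, and 0 and 8 for the interactions; the numbers do not pair the libraries. Without a filter on low counts 20 members were called at 0 h and 1 in the 4 h interaction, and the causes were not tested. With plain library size 12 were called in KO at 4 h, 22 in KO at 8 h, 3 in WT at 4 h, 31 in WT at 8 h, 1 in the 4 h interaction and 4 in the 8 h interaction. With RP scaling 40 were called for KO against WT at 4 h, 9 in KO at 4 h, 2 in WT at 4 h and 15 in the 8 h interaction. The shares of all genes called with plain library size or RP scaling are not given for these counts. The members' share of counts, KO minus WT at 4 h, was 0.0150 percentage points, and -0.0171 without mitochondrially encoded genes. A TOP start within 5 bases of the annotated start was found in 22.4% of members, by construction more than at the base itself.

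Of 121 named fold changes, 11 changed sign with plain library size and 54 with RP scaling. With plain library size the values for KO against WT at 0 h were -0.00704 for Eif2s1, -0.0613 for Eif4e, -0.0723 for Eif4g2 and -0.0722 for Eif5a. For WT 4 h it gave -0.0424 for Eif4e. For WT 8 h it gave -0.0174 for Eif1a, -0.0132 for Eif4a1, -0.0321 for Eif4a2, -0.0916 for Eif4e, -0.0379 for Eif4e3 and -0.0289 for Eif4g1. With RP scaling the values for KO against WT at 0 h were -0.0637 for Eef1a1, -0.0785 for Eef1a2, -0.12 for Eif1a, -0.0162 for Eif1ax, -0.0905 for Eif1b, -0.13 for Eif2s1, -0.18 for Eif4e, -0.20 for Eif4g2 and -0.20 for Eif5a. For KO against WT at 4 h it gave -0.0782 for Eef1a2, -0.14 for Eif1a, -0.18 for Eif1ax, -0.16 for Eif1b, -0.0324 for Eif2s2 and -0.18 for Eif2s3x. For WT 4 h it gave -0.00316 for Eif2s3y and -0.0557 for Eif4e. For WT 8 h it gave -0.00031 for Eef1a2, -0.25 for Eef2, -0.47 for Eif1a, -0.24 for Eif1ax, -0.20 for Eif1b, -0.20 for Eif2s1, -0.39 for Eif2s3x, -0.42 for Eif2s3y, -0.44 for Eif3j1, -0.47 for Eif4a1, -0.49 for Eif4a2, -0.55 for Eif4e, -0.49 for Eif4e3, -0.24 for Eif4ebp1, -0.48 for Eif4g1, -0.25 for Eif4g2 and -0.22 for Eif5a. For KO 4 h it gave -0.0883 for Eif1ax, -0.0262 for Eif2s3x, -0.0524 for Eif3j1, -0.0323 for Eif4e3, -0.0733 for Eif4g1, -0.0283 for Eif4g2 and -0.00843 for Eif5a. For KO 8 h it gave -0.12 for Eif1a, -0.12 for Eif1ax, -0.13 for Eif1b, -0.24 for Eif2s1, -0.14 for Eif2s3x, -0.0651 for Eif2s3y, -0.0978 for Eif3j1, -0.0713 for Eif4e3, -0.16 for Eif4ebp1, -0.15 for Eif4g1, -0.0628 for Eif4g2 and -0.14 for Eif6. For the interaction at 8 h it gave 0.0555 for Eif4a2. Depth limits Eif5a2, Eif3j2 and Eef1akmt4, with 2 to 46 counts per library.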
